A study of Mus musculus with 2 samples.

Results

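Notch signalling passes between touching cells. A ligand of the Jagged or Delta-like family on one cell binds a Notch receptor on its neighbour, the receptor is cut by an Adam protease and then by gamma-secretase, and its freed inner part enters the nucleus, where it joins Rbpj and switches on genes of the Hes and Hey families. In the developing face the pathway is known for its roles in blood vessels, oral epithelium, neural and sensory progenitors, muscle and skeletal precursors. The genes described here are 10 of its core members: the receptors Notch1, Notch2, Notch3 and Notch4, the ligands Jag1, Jag2, Dll1 and Dll4, and the target genes Hes1 and Hey1. They were a fixed list of symbols, and all 10 were matched by Ensembl identifier in the tables of both libraries, out of 43346 Ensembl genes.

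The libraries came from total RNA of the embryonic facial prominence of mice of strain B6NCrl at embryonic day 14.5, with no treatment named in the labels. There was 1 group with 2 biological replicates, each made from 10 ng of RNA. Each is described as the face of a single embryo, collected on separate days, while other labels give the sex as pooled male and female and the same donor identifier for both. Whether the libraries stand for 2 separate embryos is therefore not settled by the labels, and the spread between them may be partly technical. No conditions were compared, so the data give the level of each gene, the makeup of its transcripts and the difference between 2 libraries.

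Replicate 1 held 30919488 expected counts and replicate 2 held 37738872, of which the 10 Notch genes took 19526 and 22107. Synthetic spike-in RNAs accounted for 3.22% of counts (replicate 1) and 5.43% (replicate 2), and the median gene was lower in replicate 2 by 0.14 on the log2(TPM + 1) scale (a log2 ratio of -0.14), so differences between the libraries are given relative to that median. TPM is a level normalised for transcript length and depth. The spike-ins took 7.22% of TPM in replicate 1 and 11.7% in replicate 2, which lowers the TPM of all other genes. All 6 listed markers of facial mesenchyme, 6 of surface epithelium, 8 of endothelium and 8 of pericytes and smooth muscle reached 1 TPM in both libraries. Liver, lung and kidney markers did not, and of the 2 heart markers Myh6 alone did, at 1.06 and 1.09 TPM. In bulk tissue, fewer cells of a type and less RNA per cell cannot be told apart.

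All 10 Notch genes were expressed at 1 TPM or more in both libraries, against 34.9% of all Ensembl genes and 63.9% of protein-coding genes. The 10 were chosen with earlier results of these data known, which limits this comparison. Their levels ran from Hes1 at the top to Notch4 at the bottom. In order of mean level the genes were Hes1, Notch2, Notch1, Hey1, Jag1, Notch3, Dll1, Jag2, Dll4 and Notch4. The ranges over the 2 libraries overlapped between Notch2 and Notch1, between Notch1 and Hey1, between Dll1 and Jag2 and between Dll4 and Notch4. The ranges of the other neighbours in the order did not overlap. Compared within each library, Notch2 stood above Notch1 and Dll4 above Notch4 in both. Notch1 and Hey1 changed order between the libraries, as did Dll1 and Jag2, so the order within these pairs was not settled.

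**Figure D1:**
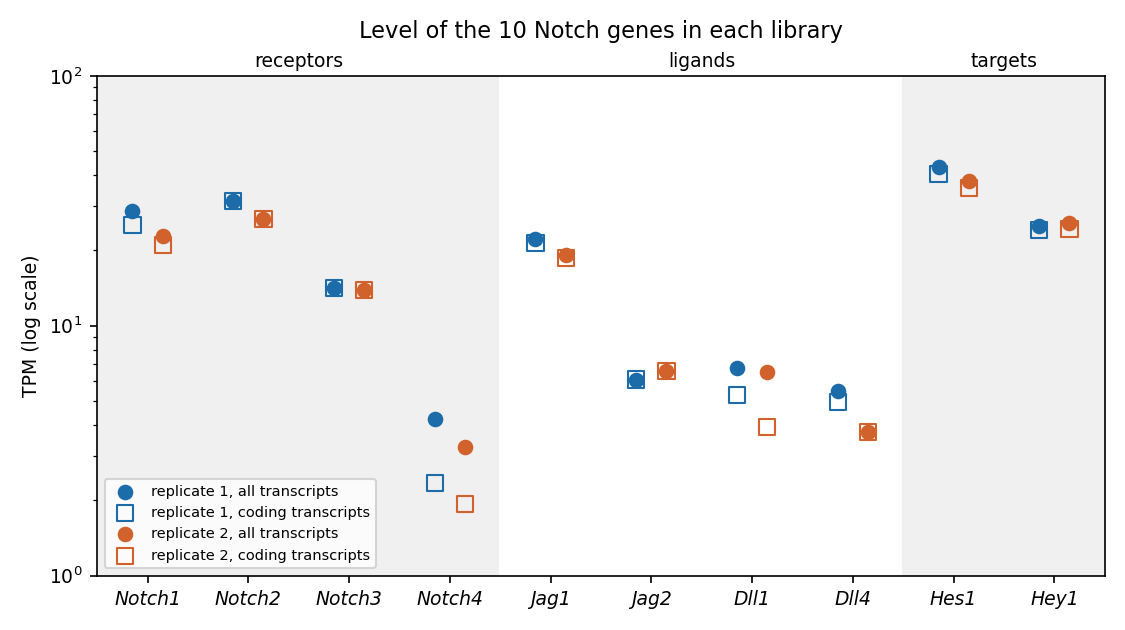
TPM of each Notch gene on a log axis, in replicate 1 (blue) and replicate 2 (orange), with filled circles for all transcripts of the gene and open squares for its protein-coding transcripts alone. Hes1 lies highest at 43.2 and 37.9 TPM, and the open squares fall clearly below the circles for Notch4 and Dll1.

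Among the receptors, Notch2 and Notch1 carried most of the RNA. Notch2, a receptor of broad mesenchymal and skeletal expression (chromosome 3, 98013527 to 98150361, mm10), had 31.5 TPM in replicate 1 against 26.8 TPM in replicate 2. Notch1, the receptor of arterial, epithelial and many progenitor cells (chromosome 2, 26457903 to 26516663), had 28.8 and 22.8 TPM. Both were lower in replicate 2. Notch2 was above Notch1 in each library, though the higher Notch1 value exceeded the lower Notch2 value. Notch3, the receptor of pericytes and vascular smooth muscle (chromosome 17, 32120820 to 32166852), had 14.2 TPM in replicate 1 against 13.9 TPM in replicate 2. Notch4, a receptor mainly of endothelium (chromosome 17, 34564268 to 34588503), had 4.23 and 3.27 TPM. The summed level of the 4 receptors was 78.6 TPM in replicate 1 against 66.8 TPM in replicate 2. Of that sum Notch2 made up 40.1% ± 0.145 (SD, n = 2), Notch1 35.3% ± 1.75, Notch3 19.4% ± 1.94 and Notch4 5.14% ± 0.34. The order Notch2 and Notch1 above Notch3 above Notch4 was the same in both libraries.

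The ligands were led by Jag1 alone. Jag1, the ligand mutated in human Alagille syndrome, which includes facial features (chromosome 2, 137081456 to 137116644), had 22.3 TPM in replicate 1 against 19.1 TPM in replicate 2. Jag2, the ligand of the oral epithelium whose loss in mice gives cleft palate (chromosome 12, 112907819 to 112929776), had 6.09 and 6.57 TPM. Jag1 lay well above the other ligands in each library. Dll1, a ligand of neural and muscle progenitors (chromosome 17, 15367354 to 15376872), had 6.78 TPM in replicate 1 against 6.55 TPM in replicate 2. Dll4, the ligand of arterial and sprouting endothelium (chromosome 2, 119325784 to 119335962), had 5.49 and 3.76 TPM. Jag1 made up 54% ± 1.24 of the summed ligand level, Dll1 17.4% ± 1.08, Jag2 16.6% ± 2.32 and Dll4 12% ± 2.16. The 4 receptors together were 1.89 ± 0.0554 times the 4 ligands together.

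Both targets were among the more abundant of the 10. Hes1, a transcriptional repressor that keeps progenitors undifferentiated (chromosome 16, 30064384 to 30067796), had 43.2 TPM in replicate 1 against 37.9 TPM in replicate 2. That was above the level of 83.5% and 83.1% of protein-coding genes in the same library. Hey1, a repressor best known in arteries, heart and cartilage (chromosome 3, 8663359 to 8667256), had 25.1 and 25.7 TPM, above 74.1% and 76.5% of protein-coding genes. At the other end, Notch4 was above 47% and 44.8% of them.

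The level of a gene in these tables is a sum over its annotated transcripts, and for Notch4 and Dll1 that sum rested in large part on short transcripts with few reads. The 10 genes had 44 transcripts, of which 32 were not annotated as protein-coding and 11 of these had 0 counts in both libraries. Notch2, Notch3 and Jag2 had 1 transcript each. In all 7 genes with several transcripts the same protein-coding transcript led in both libraries, where 90.5% of expressed protein-coding genes with several transcripts kept their leading one. For Notch4 the coding transcript Notch4-201 took 55.7% of the gene's TPM in replicate 1 and 59.5% in replicate 2. It took nearly all the reads, since the other Notch4 transcripts held 5.29% and 6.51% of the gene's expected counts. For Dll1 the transcript Dll1-201 took 77.8% and 57.7% of TPM, with other, non-coding transcripts at 5.17% and 10.9% of the counts.

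Transcripts not annotated as coding reached 20% of TPM in both libraries in 2 of the 10 genes, Notch4 and Dll1, a threshold chosen after the values were seen. The same held for 17.9% of expressed protein-coding genes. The difference between the share of TPM and the share of counts follows from length, because a count on a short transcript is worth more TPM than a count on a long one. The transcripts other than the leading one that reached 10% in a library were Notch4-210, Notch4-209, Dll1-204 and Dll4-202. Notch4-210, of 619 bases, took 28.6% of TPM in replicate 1 from 12.4 counts and 21% in replicate 2 from 9.08 counts. The interval the quantifier gave for its TPM, whose level is not stated in the deposited tables, ran from 0.184 to 2.34 TPM in replicate 1 and from 8.40e-05 to 1.5 TPM in replicate 2. The deposited TPM of the whole Notch4 gene lay below its own interval in both libraries, 4.23 against 4.37 to 8.22 TPM in replicate 1 and 3.27 against 3.4 to 6.63 TPM in replicate 2. Notch1 in replicate 2 was also below its interval (22.8 against 23.2 to 29.1 TPM), and Notch2 in replicate 1 above it (31.5 against 29.8 to 31.3 TPM). Notch4-209, of 352 bases, took 11.1% and 10.3% from 2.35 and 2.18 counts. Dll1-204, of 751 bases, took 15.3% from 13.3 counts in replicate 1 and 28.5% from 31 counts in replicate 2. Dll4-202, of 692 bases, took 10% in replicate 1 from 6.44 counts and had 0 counts in replicate 2.

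**Figure D2:**
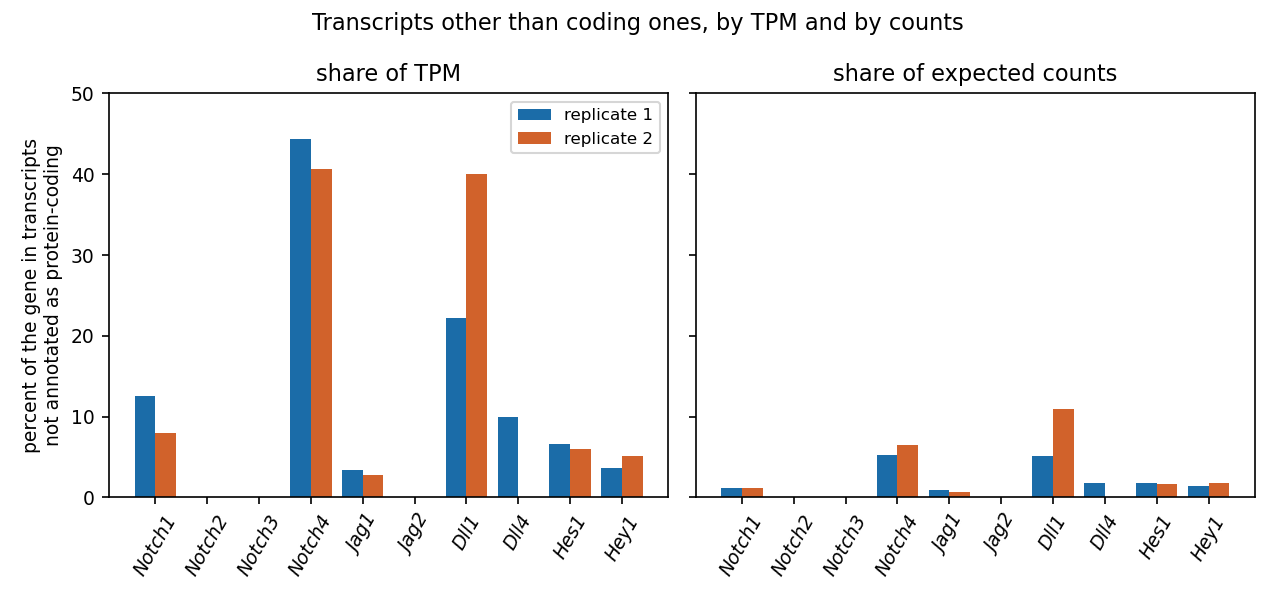
Percent of each Notch gene in transcripts not annotated as protein-coding, as a share of TPM (left) and of expected counts (right), in replicate 1 (blue) and replicate 2 (orange). The bars of Notch4 reach 44.4% and 40.7% of TPM but 5.29% and 6.51% of counts, and those of Dll1 22.2% and 40% of TPM but 5.17% and 10.9% of counts.

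The short transcripts Dll1-204, Notch4-210 and Dll4-202 are shown because a few of their bases alone set them apart from the coding transcript. Each is written 5′ to 3′ from the GENCODE M21 transcript sequences, followed by the coding transcript of the same gene at the same place. Capitals mark the bases that no exon of the coding transcript holds, and lower case marks coding bases of the coding transcript. The first 24 bases printed for Notch4-201 are not in Notch4-210, and the Dll4-201 line runs on past the point where the Dll4-202 line stops.
Dll1-204: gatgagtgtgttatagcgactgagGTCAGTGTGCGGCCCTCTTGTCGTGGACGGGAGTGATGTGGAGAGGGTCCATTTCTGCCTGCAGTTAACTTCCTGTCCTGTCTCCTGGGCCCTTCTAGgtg
Dll1-201: gatgagtgtgttatagcgactgaggtg
Notch4-210: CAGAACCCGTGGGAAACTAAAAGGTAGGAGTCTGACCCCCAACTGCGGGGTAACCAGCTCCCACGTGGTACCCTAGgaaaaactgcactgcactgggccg
Notch4-201: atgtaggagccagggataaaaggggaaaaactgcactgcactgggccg
Dll4-202: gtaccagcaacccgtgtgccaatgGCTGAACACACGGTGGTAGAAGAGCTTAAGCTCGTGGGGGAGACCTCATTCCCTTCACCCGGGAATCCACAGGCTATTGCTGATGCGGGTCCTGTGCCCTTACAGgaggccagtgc
Dll4-201: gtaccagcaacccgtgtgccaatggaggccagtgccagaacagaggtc

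The capitals of Dll1-204 are an unspliced intron of 98 bases (chr17:15368036-15368133, minus strand, mm10), and the remaining 653 bases of that transcript lie in exons of Dll1-201. Those of Notch4-210 are 76 intron bases (chr17:34587041-34587116, plus strand) before 543 shared coding bases. Those of Dll4-202 are 105 intron bases (chr2:119332038-119332142, plus strand) beside 587 shared ones. A read that lies wholly in shared bases does not tell the transcripts apart, so the split of counts between them is an estimate of the quantifier.

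With protein-coding transcripts alone, an alternative added after the data were seen, Notch4 stood at 2.15 ± 0.29 TPM and Dll1 at 4.6 ± 0.948 TPM (SD, n = 2), against 3.75 ± 0.679 and 6.67 ± 0.163 TPM over all transcripts. Dll1 then had 5.27 TPM in replicate 1 against 3.93 TPM in replicate 2. On this scale Jag2 stood above Dll1 in both libraries. Notch4 was below Dll4 in both, as it was over all transcripts, but the ranges of these genes no longer overlapped. The quantifier's intervals for Dll1-201 ran from 4.49 to 5.6 TPM in replicate 1 and from 3.18 to 4.07 TPM in replicate 2 and did not overlap. These intervals are of TPM with no centring, while the median gene had a log2 ratio of -0.14. The receptor sum was 73.2 and 63.6 TPM on this scale, with Notch2 at 42.6% ± 0.566 of it and Notch4 at 3.13% ± 0.115. The receptors were then 1.94 ± 0.00276 times the ligands.

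The 5′ ends of the genes differed in their density of CG dinucleotides, the sites of DNA methylation. RefSeq windows of 300 bases, from 250 before to 50 after a start site (build GRCm38.p6), were found for 8 of the 10 genes, with 2 windows for Dll1. Hes1 and Hey1 had no entry. The 9 windows held between 5 and 63 CG, with a median of 23, where the median of 32851 windows of all genes was 7. Those 32851 windows were not limited to expressed or protein-coding genes, and 78.5% of them held fewer CG than the Notch1 window. Jag2 had the most and Notch4 the fewest. Notch2 held 41, Notch3 25, the 2 windows of Dll1 24 and 15, Notch1 23, Jag1 22 and Dll4 17. The bases before the starts of Notch1-201, of the abundant receptor, and Notch4-201, of the scarce receptor, are shown to compare a CG-rich and a CG-poor start. The Notch1 stretch lies within the annotated gene, since Notch1-206, with 0 counts in both libraries, starts upstream at 26516663. CG is in capitals.
Notch1: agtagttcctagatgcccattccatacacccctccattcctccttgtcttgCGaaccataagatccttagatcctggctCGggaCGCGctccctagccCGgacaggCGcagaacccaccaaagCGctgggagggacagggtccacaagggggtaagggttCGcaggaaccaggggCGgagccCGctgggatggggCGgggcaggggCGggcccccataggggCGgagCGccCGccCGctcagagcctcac
Notch4: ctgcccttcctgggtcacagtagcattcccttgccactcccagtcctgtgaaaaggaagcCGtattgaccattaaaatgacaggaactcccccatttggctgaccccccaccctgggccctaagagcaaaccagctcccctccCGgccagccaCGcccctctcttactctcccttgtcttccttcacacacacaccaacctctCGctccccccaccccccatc

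The Notch1 stretch of 250 bases (chr2:26503823-26504072, minus strand) held 16 CG and the Notch4 stretch of 223 bases (chr17:34564045-34564267, plus strand) held 4. The core letters of the Rbpj site, TGGGAA, were searched on both strands. They were in 0 of the 9 windows, all of receptors or ligands, and in 25.6% of all windows. The target genes Hes1 and Hey1 had no window and were not searched. A match or its absence in so short a window describes the letters alone.

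Between the libraries none of the 10 was past 1.5-fold of the median gene in either direction, where 5.25% of the 15715 genes with a mean of 1 TPM or more were. The median log2 difference, replicate 2 over replicate 1 and relative to the median gene, was -0.06 over the 10 genes, with a lowest value of -0.31 and a highest of 0.23. All 10 lay within the central 95% of genes tested, from -0.46 to 0.74, and 5 lay within the middle range between the quartiles, from -0.12 to 0.13. With 1 library on each side no test of the difference was possible, and the intervals given next cover counting error only.

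Of the receptors, Notch3 was higher in replicate 2 relative to the median gene (but -0.03 from TPM with no centring) and the others lower. From counts, the log2 ratio of Notch3 was 0.12 (95% counting interval 0.04 to 0.20, from 2227 and 2814 counts). That of Notch1 was -0.11 (-0.17 to -0.06, from 4711 and 5074 counts) and that of Notch2 -0.08 (-0.13 to -0.03, from 6454 and 7119 counts). Notch4, with 318 and 344 counts, had -0.11 (-0.33 to 0.12), an interval that spans the median gene. Beside Notch3, all 8 markers of pericytes and smooth muscle lay between -0.04 and 0.48 from TPM, with a median of 0.18. They summed to 470 TPM in replicate 1 against 465 TPM in replicate 2, of which Acta2 alone had 348 and 340 TPM. The part of these markers in the Notch3 value was not tested. Beside Notch1, Notch4 and Dll4, the 8 endothelial markers summed to 243 and 224 TPM with a median log2 ratio from TPM of -0.01, and the 5 arterial markers to 59.4 and 59.8 TPM with a median of 0.10.

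Of the ligands, Dll4 and Jag2 lay farthest apart. Dll4 had 362 counts in replicate 1 and 350 in replicate 2, a log2 ratio of -0.27 (-0.48 to -0.05) from counts and -0.31 from TPM. The arterial markers lay between -0.04 and 0.52 from counts and between 0.09 and 0.42 from TPM. Jag2 had 475 and 662 counts, a ratio of 0.26 (0.09 to 0.43) from counts and 0.23 from TPM. Surface epithelial markers summed to 693 and 696 TPM and ranged from -0.28 to 0.64 from TPM, with a median of -0.09. The value of 0.64 was that of Krt15, which had 126 and 180 TPM of the sum. The part of either marker list in these values was not tested. Jag1 had 2362 and 2629 counts and a ratio of -0.07 (-0.15 to 0.02). The direction for Dll1 depended on the scale. It was 0.09 from gene TPM but -0.23 (-0.44 to -0.02) from its 382 and 379 counts, and -0.24 from the TPM of its coding transcripts. The gene's effective length, by which the quantifier divides counts, was 2857 bases in replicate 1 and 2270 in replicate 2, because more of its reads were given to short transcripts in replicate 2. Dll1 is known in neural and in muscle progenitors, and markers of neural progenitors and of muscle as a whole are given. The neural progenitor markers summed to 14.2 and 10.6 TPM, and the 5 of 6 that were expressed had ratios from -0.18 to -0.12 from TPM and from -0.33 to -0.21 from counts, each with a counting interval that spans the median gene. Neurog2, the remaining one, had 7 counts and 0. The 6 muscle markers, which include genes of differentiated muscle, summed to 2413 and 2669 TPM, of which Actc1 alone had 1732 and 1930 TPM. Their ratios ran from -0.07 to 0.46 from TPM and from -0.11 to 0.47 from counts. From counts Pax7, of progenitors, had -0.11 (-0.38 to 0.15) and Myod1, of myoblasts, -0.06 (-0.17 to 0.04). Both intervals span the median gene, and from TPM Pax7 had 0.05 and Myod1 -0.07. Myog, Myh3, Actc1 and Ttn had 0.09, 0.47, 0.31 and 0.31 from counts. The part of either marker list in the Dll1 value was not tested.

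Of the targets, Hes1 lay at the median gene and Hey1 above it. Hes1 had 1110 and 1265 counts and a ratio of -0.03 (-0.15 to 0.09). Hey1 had 1125 and 1470 counts and a ratio of 0.17 (0.05 to 0.28), and the same 0.17 from TPM. Cartilage markers, of a tissue that also expresses Hey1, lay lower in replicate 2, summing to 759 TPM in replicate 1 against 438 TPM in replicate 2, with ratios from TPM between -1.25 and -0.31. Their part in the Hey1 value was not tested. Counting intervals spanned the median gene for 3 of the 10, Notch4, Jag1 and Hes1.

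**Figure D3:**
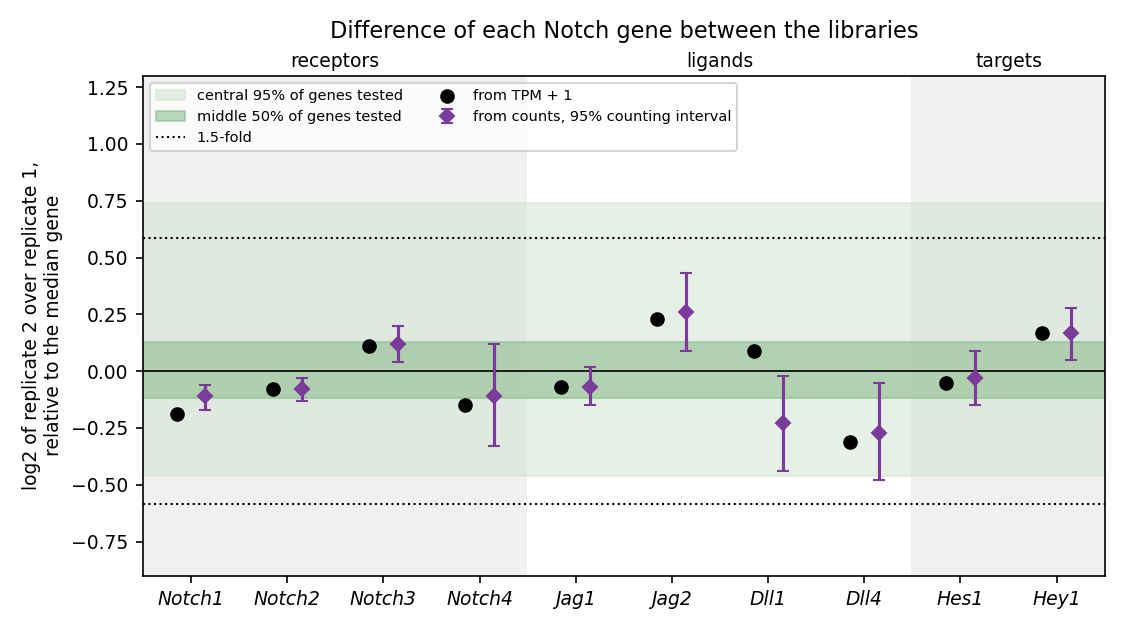
Log2 ratio of replicate 2 to replicate 1 for each Notch gene, relative to the median gene, from TPM + 1 (black circles) and from expected counts with their 95% counting interval (purple diamonds and bars). Green bands give the middle range between quartiles and the central 95% of the 15715 genes tested and dotted lines 1.5-fold; every circle lies between the dotted lines, and for Dll1 the circle at 0.09 and the diamond at -0.23 lie on opposite sides of 0.

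Genes in the annotation overlapped several of the Notch genes on the opposite strand. How the authors' counting treated strand is not given in the sources used here, so reads of such partners cannot be told apart from the gene's own in the shared bases. The non-coding gene Gm13568 overlapped 414 bases at the 3′ end of Notch1 and had 17.1 TPM in replicate 1 against 17.6 TPM in replicate 2, from 117 and 156 counts against 4711 and 5074 for Notch1. 0610009E02Rik overlapped 1488 bases of Notch1 at 2.06 and 1.94 TPM. Gm17276, antisense to Notch3, had 0.23 TPM in each library, Gm14207 at Dll4 had 0.76 and 0.57 TPM, A930024N18Rik at Dll1 had 0.14 and 0.13 TPM, and the pseudogene Gm20462 within Notch4 had 1 count and 0. The microRNA genes Mir6996 in Notch1 and Mir6941 in Jag2 had 0 counts. Jag2 was counted on a transcript of 4054 bases, where GENCODE M21 gives 5106 for the same identifier.

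The rest of the pathway was present with few gaps. Of 55 other pathway genes, listed by role, 50 reached 1 TPM in each library, and the median level was 18.1 TPM. Of all protein-coding genes 63.9% did so, a share that also stands beside the counts by role below. Like the 10 members, this list was chosen with earlier results of these data known, which limits the comparison. Of all genes tested 5.25% were past 1.5-fold in either direction. Among the 51 pathway genes with a mean of 1 TPM or more, 1 was past it, higher in replicate 2, and 0 were lower. That gene was Dll3, an atypical Delta-like protein that inhibits signalling inside the cell, with 0.77 TPM in replicate 1 against 1.67 TPM in replicate 2 from 35 and 73 counts, a log2 ratio of 0.73 from TPM and 0.84 (0.24 to 1.47) from counts. The call was lost under 6 of 10 alternatives. The highest gene of the whole list was Dlk1, an imprinted non-canonical ligand, at 795 and 706 TPM.

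Genes that modify and cut the receptors were all expressed. All 6 genes of receptor glycosylation and processing were, from the fucosyltransferase Pofut1 at 9.48 and 8.22 TPM to the glucosyltransferase Poglut1 at 46.4 and 39.1 TPM. They include the fringes, of which Lfng and Mfng shift receptors from Jagged towards Delta-like ligands. All 9 genes of receptor cleavage were expressed, led by the gamma-secretase subunit Psenen at 89 and 91.5 TPM. Aph1c, another subunit, was lowest at 2.79 and 3.12 TPM. It has a close copy, Aph1b, at 8.95 and 8.74 TPM, and the split of reads between them was not tested. Of 6 genes of ligand endocytosis, which pulls on the bound receptor, 5 reached 1 TPM in both, led by Epn1 at 46.2 and 39.6 TPM, with Neurl1b at 0.81 and 0.64 TPM.

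In the nucleus, all 7 genes of the activating complex were expressed, from the coactivator Maml3 at 4.19 and 3.75 TPM to Snw1, also a splicing factor, at 90.3 and 73.6 TPM. All 8 corepressor genes were, from Spen at 7.94 and 9.87 TPM to the histone deacetylase Hdac1 at 162 and 136 TPM. All 8 inhibitors and turnover genes were, from Dtx1 at 3.33 and 2.47 TPM to Dtx3 at 97.2 and 85.2 TPM. The other Hes and Hey genes and the feedback inhibitor Nrarp were the least complete group, with 5 of 8 expressed. Hes6, which counteracts Hes1 in differentiating cells, led it at 91.9 and 80.5 TPM. Hes3 had 0 counts in both libraries, which allows up to 0.0879 TPM in replicate 1 against 0.068 TPM in replicate 2.

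**Figure D4:**
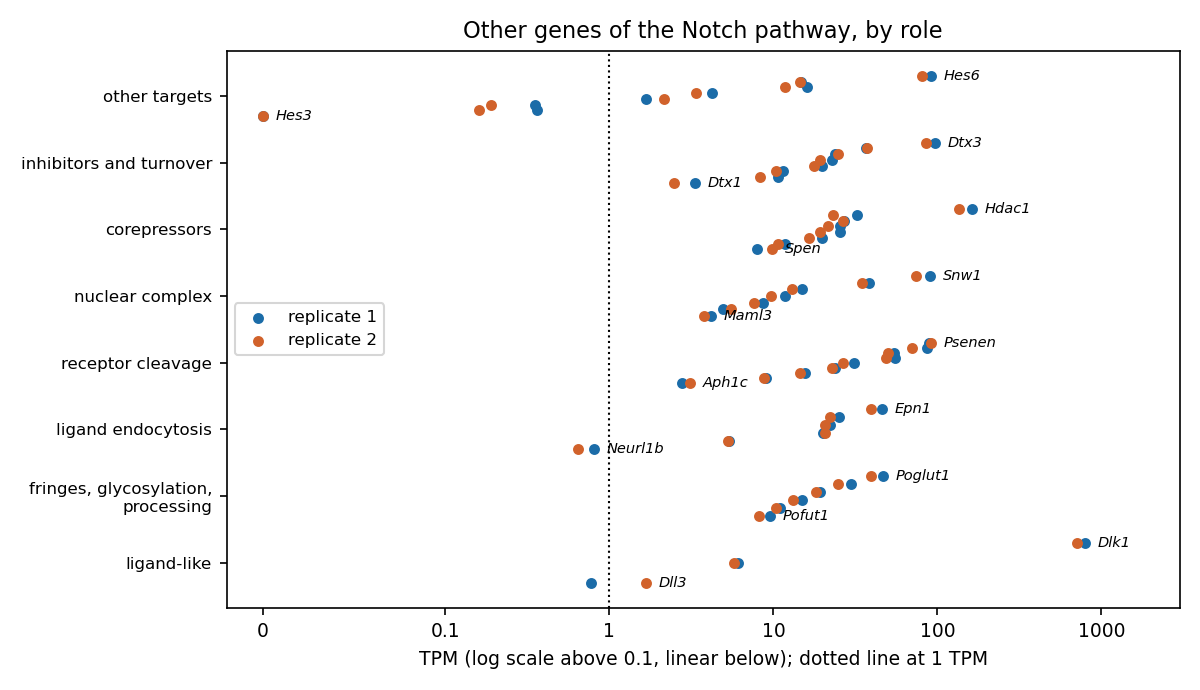
TPM of 55 other Notch pathway genes by role, in replicate 1 (blue) and replicate 2 (orange), on an axis that is logarithmic above 0.1 and linear below, with the highest and lowest gene of each role named and a dotted line at 1 TPM. Dlk1 stands highest at 795 and 706 TPM, Hes3 lies at 0, and Dll3 is the gene whose points lie on opposite sides of the line.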

How the data were processed

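Total RNA was measured in 2 libraries of 1 group, labelled as biological replicates. Gene and transcript tables were deposited by the authors with expected counts (estimated, not whole numbers), TPM and FPKM, and with the percent of a gene's TPM in each transcript, per the file headers. The build mm10 and the GENCODE M4 annotation are named in the text deposited with the tables. For aligner, quantifier version and strand the setting is not given in the sources used here. Totals were 30919488 and 37738872 expected counts, spike-ins included. The libraries were not duplicates of each other, with a chi-square per gene of 16.4 over 18123 genes with 20 or more counts.

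Names, coordinates and transcript types came from GENCODE M21 of the same build, joined by Ensembl identifier without version. Ratios were log2((TPM + 1) of replicate 2 over replicate 1) minus the median of genes with a mean of 1 TPM or more. Ratios from counts were centred likewise and carry exact (Clopper-Pearson) 95% intervals, which cover counting error only. The limit for 0 counts is that of 3 counts. The scripts were tested on simulated data with known fold changes. With 2 libraries of 1 group no test was run and no p-value is given. Named were the 10 members, for each role of the pathway list the highest and lowest gene and any past 1.5-fold, transcripts with 10% or more of a gene's TPM, and overlapping genes. With 1 group, no genes of like pattern could be named. Members and lists were chosen with earlier results of these data known. Alternatives changed the pseudocount, filter, unit, centring, fold, expression level, spike-in scale and scaling (edgeR 4.0.16 TMM factors and DESeq2 1.42.0 size factors on rounded expected counts), and protein-coding transcripts alone were added after seeing the data. The work was done in R 4.3.3 and Python 3.11.15 with scipy 1.17.1, pandas 2.3.3, numpy 2.4.6 and matplotlib 3.10.9.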

Additional observations from a re-analysis of the deposited data

How the results depend on the processing

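All 10 Notch genes stayed expressed under each expression alternative except a level of 5 TPM, which left 8, and with either library alone (10 without replicate 1 and 10 without replicate 2). Of the pathway genes 51 were expressed without replicate 1 and 50 without replicate 2. None of the 10 passed the fold under 12 of 12 alternatives. The count of pathway genes past 1.5-fold, 1 as reported, was 0 with a pseudocount of 5 TPM, a mean of 5 TPM or more, TMM, DESeq2 size factors, FPKM and protein-coding transcripts alone. That gene, Dll3, is removed by the mean filter, and a larger pseudocount shrinks its ratio by construction. Its coding transcripts had 0.69 and 0.98 TPM, closer together than the whole gene, and its FPKM of 0.49 and 1.13 are smaller beside the pseudocount. For TMM and size factors the cause was not tested. The median log2 ratio of the Notch genes was -0.20 with no centring, against -0.06, which is the shift of the median gene added back. Dll1 changed side of the median gene under TMM, DESeq2 size factors, coding transcripts alone and no centring, and Notch3 under no centring. Of 98 single ratios 86 stayed within their counting half-width. Of 40 single levels 32 stayed within the SD of the 2 libraries and 8 did not. Rescaling TPM to Ensembl genes, without spike-ins, moved Notch3, Jag2, Dll1, Hes1 and Hey1 upwards, Hes1 from 40.6 to 44.7 TPM. Coding transcripts alone moved Notch4, Dll1 and Hey1. Of 40 shares of a leading transcript 28 stayed within the SD and 12 did not. Ratios have no value with 1 library left out. No paired analysis was possible because both libraries belong to 1 group. Depth limits Notch4, Dll1 and Dll4 most, with between 318 and 382 counts in a library.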
